A study of Mus musculus with 2 samples.

Results

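The interleukin-1 family and its receptors were examined in cultured mouse ovary as 9 genes: the ligands Il1a, Il1b, Il33 and Il18, the antagonist Il1rn, and the receptor chains Il1r1, Il1r2, Il1rap and Il1rl1. They were chosen by name, with earlier results of these data known. Every probe whose RefSeq accession belongs to 1 of these genes was taken. This gave 12 probes printed at 21 spots, out of 55674 probes at 59305 spots. Gene expression was measured on single-colour microarrays, on which labelled RNA binds to probes of known sequence and the brightness of a spot follows the amount of RNA. Ovaries of 2-week-old mice, an age before gonadotropins drive follicle growth, were cut lengthwise into symmetrical pieces and cultured for 3 days. In the agonist group the medium held [Sar9, Met(O2)11]-SP for TACR1, GR-64349 for TACR2 and senktide, a succinylated substance P fragment, for TACR3; in the antagonist group it held a TACR1 antagonist, GR-94800 for TACR2 and SB218795 for TACR3. Each ligand was used at 1 μM, and the question was which genes depend on stimulation of the tachykinin receptors (TKRs). Each group had a single array (n = 1), untreated ovary was not analysed here, and the mouse strain and the number of ovaries behind each RNA are not given in the sources used here. No statistical test could therefore be made. The errors of log2 ratios below are the image software's estimate for each spot, not a spread measured over repeated spots. Neither they nor the spreads over spots say anything of how ovaries vary.

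Cytokines of the interleukin-1 family are alarm signals that bind a receptor chain specific to the ligand together with a chain that many of them share. IL-1α and IL-1β bind IL1R1 with IL1RAP, IL-33 binds ST2 (the product of Il1rl1) with IL1RAP, and IL-18 has receptor chains of its own. The assembled receptor recruits MYD88 and IRAK kinases and leads to activation of NF-kB. The pathway is restrained at several levels, by the receptor antagonist IL1RN, by the decoy receptor IL1R2, by IL-18 binding protein and by inhibitors inside the cell. In the ovary, IL-1 signalling is known mainly from ovulation, which resembles an inflammatory reaction.

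Of the 9 genes, 6 were well above background on both arrays, a mark of the image analysis software for a spot that clearly exceeds its local background, and 3 were on neither. The 6 measured genes were Il33, Il18, Il1r1, Il1r2, Il1rap and Il1rl1, and those not well above background were Il1a, Il1b and Il1rn, the ligands of IL1R1 and their antagonist. For comparison, 73.9% of all 20658 genes with a probe were well above background on both arrays and 21.2% on neither. In 4 of the 6 measured genes, Il33, Il18, Il1r1 and Il1r2, the level with the TKR agonists was between 1.77 and 1.93 times that with the antagonists, whereas Il1rap and Il1rl1 lay closer to no difference. In whole tissue, fewer cells of a type and less RNA per cell cannot be told apart. None of the 6 reached a 2-fold difference with the scaling used here, although these 4 did so without any scaling of the arrays, as described further on. The plot of the signals of all 12 probes shows both arrays side by side.

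**Figure D1:**
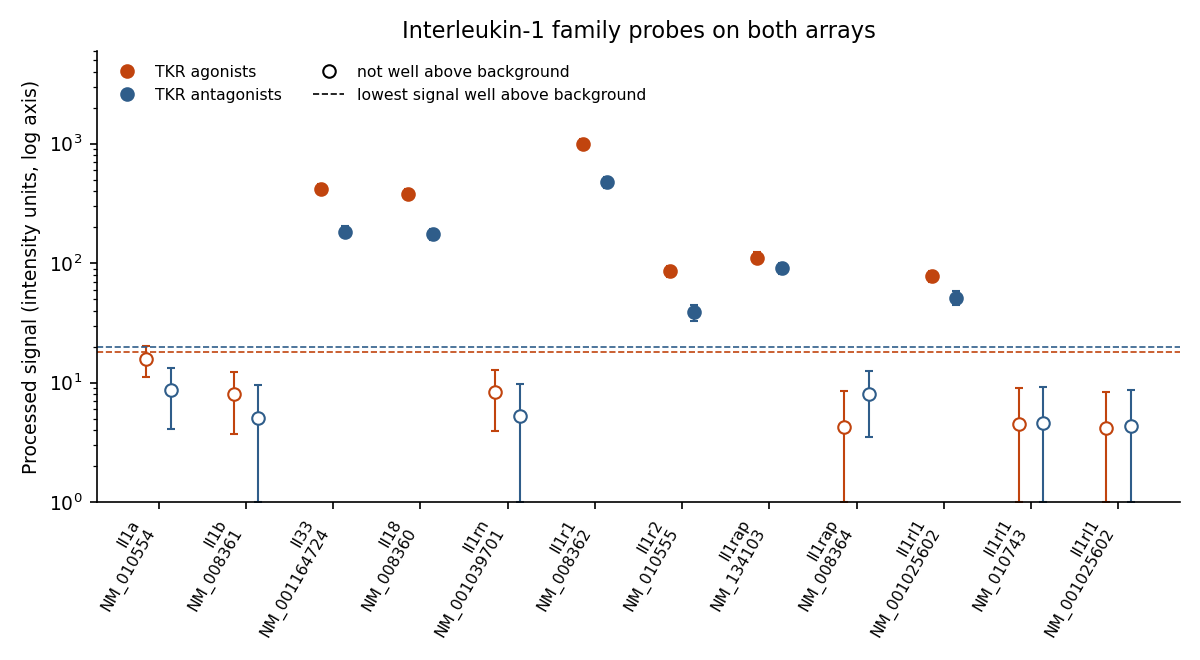
Processed signal in intensity units on a log axis for the 12 probes of the 9 genes, labelled with gene and RefSeq accession, with the TKR agonist array in orange and the TKR antagonist array in blue; for Il1b the mean of 10 spots is shown. Bars are the software's error of a spot (for Il1b the mean over its spots; bars that reach 0 end at the axis), open circles were not well above background, and the dashed lines mark the lowest signal well above background, 18.1 for the agonists and 19.9 for the antagonists. For 6 genes 1 probe lies above the lines on both arrays; the probes of Il1a, Il1b and Il1rn, the other probe of Il1rap and the other probes of Il1rl1 lie below them.

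Signals are printed before scaling and ratios after it, so the quotient of printed signals differs from the printed fold. The processed signal is the background-subtracted brightness of a spot in intensity units; it was divided by its array's 75th percentile, 672 on the agonist array and 569 on the other, and a log2 ratio is the scaled agonist level minus the scaled antagonist level, so that 1 stands for 2-fold higher with the agonists. The 33073 probes that passed the background criterion on both arrays had log2 ratios with a median of -0.10 (SD 0.43 over probes). Of these probes, 2.69% were past 2-fold on the agonist side and 0.705% past 2-fold on the antagonist side. The 284 probes printed at 10 spots that were well above background at all of them gave a median SD of 0.07 for the log2 ratio between spots. This value does not cover dim probes. The spot errors given with log2 ratios are instead the software's estimates, and they were nearly the same, about 0.20, for many bright genes. The share of spots well above background was 65.4% and 61.6%, and 0 spots were saturated. Because probes differ in how strongly they bind, levels are compared between arrays; where a gene is called the brightest of a list this refers to its probe's signal and does not rank amounts of RNA.

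Il33 encodes IL-33, a nuclear cytokine of stromal, epithelial and endothelial cells that is released on damage. Its probe gave a processed signal of 421 with the agonists and 184 with the antagonists. The signal was thus higher on the agonist array both before and after scaling, with a log2 ratio of 0.95 ± 0.21 (spot error, 1 spot per array), or 1.93-fold. Il18 encodes the precursor of IL-18, which caspase-1 cleaves to its active form. The agonist array gave a signal of 379.9 and the antagonist array 176, which gave a log2 ratio of 0.87 ± 0.21, or 1.83-fold. For both of these ligands the difference was more than 4 times the software's spot error. Of all probes well above background on both arrays, 2.99% had a log2 ratio at least as high as that of Il33 and 3.55% at least as high as that of Il18.

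The other ligands of the family gave no measurable difference. Il1a encodes IL-1α, an alarm cytokine held in the cell until damage, and its single spot had a signal of 15.7 with the agonists and 8.74 with the antagonists. Neither value was well above background, though the software marked both as positive and significant, a weaker criterion, so no fold is given. Il1b encodes IL-1β, the secreted cytokine made mainly by activated myeloid cells, and was measured by 1 probe at 10 spots. With the agonists the 10 spots lay between 3.95 and 19.3 with a median of 7.37 and a mean of 8.02 ± 4.64 (SD over 10 spots). With the antagonists they lay between 4.21 and 8.31 with a median of 4.52 and a mean of 5.04 ± 1.32 (SD over 10 spots). No spot was well above background on either array, and 7 of the 10 agonist spots and 2 of the 10 antagonist spots were positive and significant. At every remaining spot the signal lay just below the software's error of that spot. The medians and spreads therefore rest partly on values no larger than their error. The spots of the arrays overlapped, and the brightest agonist spot was 4.89 times the dimmest, so that the spread within the agonist array exceeded the difference between the means. Any IL-1β transcript in these ovaries was therefore under what this probe could measure, which does not show that it was absent.

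**Figure D2:**
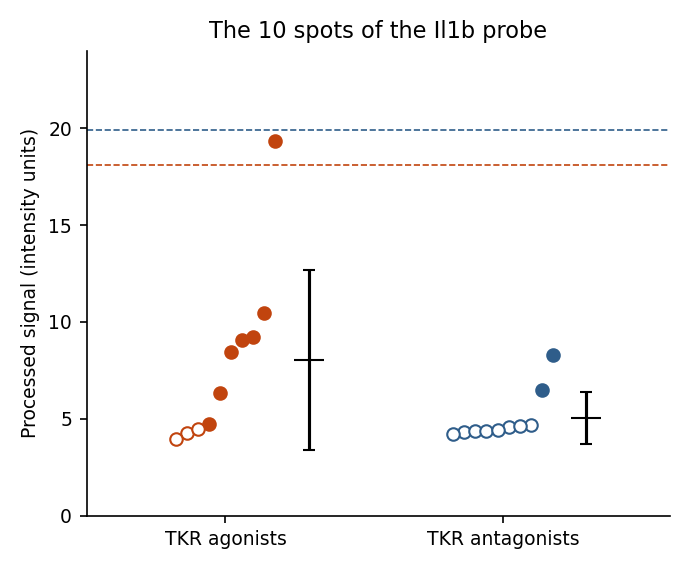
Processed signal in intensity units, on a linear axis from 0, of the 10 spots of the Il1b probe on each array, ordered by signal within an array. Filled circles were positive and significant against the local background, open circles were not, black marks give the mean ± SD over 10 spots, and dashed lines are the lowest signals well above background on the agonist (orange) and antagonist (blue) arrays. The spots of both arrays overlap, and 1 agonist spot at 19.3 stands above the rest.

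Il1rn encodes the secreted antagonist that occupies IL1R1 without signalling. Its single spot had a signal of 8.37 with the agonists and 5.29 with the antagonists, neither well above background. The ligands IL-1α and IL-1β and their antagonist were thus all too dim for a fold on these arrays, in contrast to the receptor chain they share.

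Il1r1 encodes the signalling receptor for IL-1α and IL-1β. Its probe had a signal of 1000.1 with the agonists and 477 with the antagonists. The log2 ratio was 0.83 ± 0.20 (spot error, 1 spot per array), or 1.77-fold, and 3.89% of probes had a ratio at least as high. Il1r2 encodes the decoy receptor, which binds IL-1 without passing a signal into the cell. It was read at 85.8 with the agonists and 38.9 with the antagonists, which is a log2 ratio of 0.90 ± 0.28, or 1.87-fold, and 3.31% of probes had a ratio at least as high. The signalling receptor and the decoy therefore differed between the arrays by amounts that lie within the spot error of each other. The probe of Il1r2 lay closer to background, and with the normexp background correction its log2 ratio became 0.29, whereas that of Il1r1 stayed at 0.71.

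Il1rap encodes the accessory chain that IL1R1 and ST2 share. Its brighter probe, for NM_134103, had a signal of 112 with the agonists and 90.9 with the antagonists, for a log2 ratio of 0.05 ± 0.22 (spot error, 1 spot per array), or 1.04-fold. This lay within the spot error of no difference, and 31.1% of all probes had a ratio at least as high. The other probe, for NM_008364, gave 4.27 with the agonists and 8.09 with the antagonists and was not well above background on either array. Il1rl1 encodes ST2, the receptor for IL-33, and had 3 probes. The probe well above background on both arrays, for NM_001025602, had a signal of 78.2 with the agonists and 51.6 with the antagonists, for a log2 ratio of 0.36 ± 0.25, or 1.28-fold. A further probe for the same transcript gave 4.14 and 4.34, and the probe for NM_010743 gave 4.51 and 4.63, so these were at background on both arrays and the level of Il1rl1 rests on 1 of its 3 probes. The ratio of Il1rl1 exceeded its spot error by less than 2 times, and 12.5% of all probes had one at least as high.

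**Figure D3:**
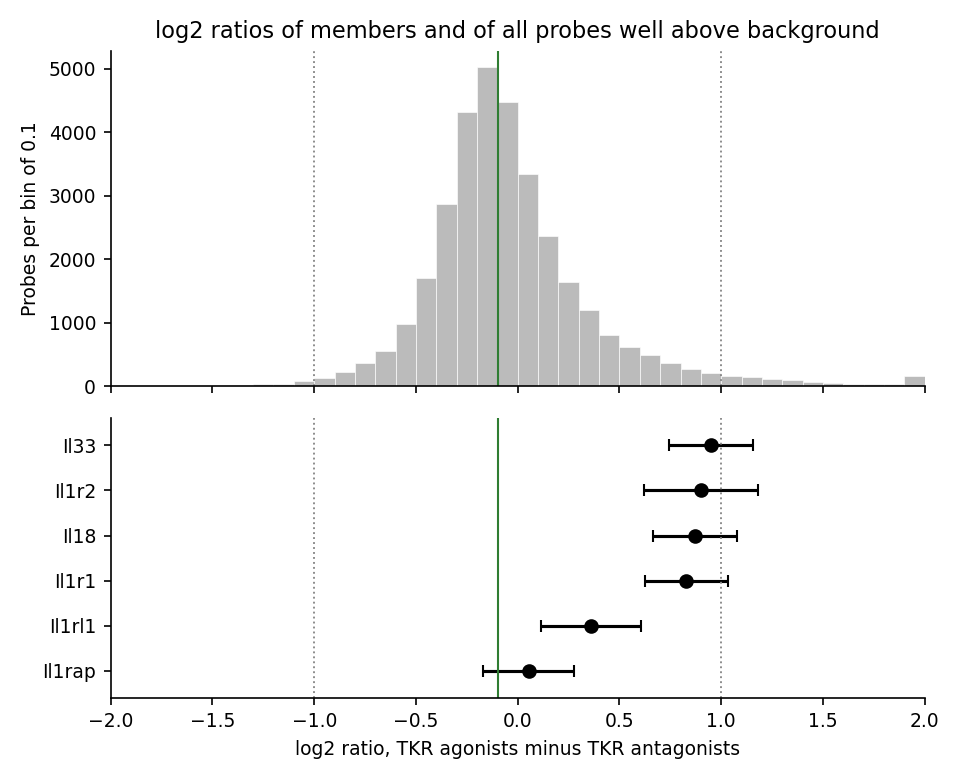
The lower panel gives the log2 ratio, TKR agonists minus TKR antagonists, of the 6 genes well above background on both arrays, with the software's spot error as bars. The upper panel is a histogram of the same ratio for all 33073 probes that passed the background criterion on both arrays, in bins of 0.1, with ratios beyond the axis counted in the end bins. The green line is the median of all these probes, -0.10, and dotted lines mark 2-fold differences. Il33, Il1r2, Il18 and Il1r1 lie between 0.83 and 0.95, and Il1rl1 and Il1rap lie at 0.36 and 0.05.

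As a group, the 6 measured genes had a median log2 ratio of 0.85, beside -0.10 for the 15258 genes well above background on both arrays. All 6 lay above 0, as did 37.7% of all these genes. At a threshold of 1.5-fold higher, 4 of the 6 were past it, against 9.26% of all genes, though Il1r2 was no longer past it under normexp (0.29); and at 2-fold 0 of the 6 were past it, against 4.01%. The genes are few and were not drawn at random, so these counts describe the group and carry no probability. The highest and the lowest ratio of the group, 0.95 for Il33 and 0.05 for Il1rap, differed by more than 3 times the spot error of either.

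The position of the genes was compared with these ratios. In RefSeq's annotation of GRCm38, Il1r2, Il1r1, Il1rl2, Il1rl1, Il18r1 and Il18rap follow each other on chromosome 1 with no other protein-coding gene between them. Along this row, Il1r2 and Il1r1 had log2 ratios of 0.90 and 0.83 and Il1rl1 had 0.36, while Il18r1 passed the background criterion only with the agonists, and Il1rl2 and Il18rap on neither array. Neighbouring genes of this cluster thus did not share a single ratio. Il1a and Il1b lie side by side on chromosome 2, where Il1rn lies as well, and none of these was well above background. Il33, Il18 and Il1rap lie on chromosomes 19, 9 and 16.

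The promoters of the 4 genes with the higher ratios and of Il1rap, which had the lowest ratio of the 6, are printed so that the genes can be compared in sequence. Each line holds the 250 bases before a transcription start, 5′ to 3′ on the strand of the gene, as RefSeq gives it for GRCm38.p6. Where RefSeq lists several starts the most upstream of them is shown. Capitals mark matches, on either strand, to the STAT element TTCNNNGAA, the E-box CACGTG, the TATA box TATAAA, the AP-1 site TGANTCA or the NF-kB consensus, and lower case is all other sequence. The windows were chr19:29924863-29925112 on the plus strand for Il33, chr9:50554450-50554699 on the plus strand for Il18, chr1:40224830-40225079 on the plus strand for Il1r1, chr1:40085843-40086092 on the plus strand for Il1r2 and chr16:26581455-26581704 on the plus strand for Il1rap.
Il33: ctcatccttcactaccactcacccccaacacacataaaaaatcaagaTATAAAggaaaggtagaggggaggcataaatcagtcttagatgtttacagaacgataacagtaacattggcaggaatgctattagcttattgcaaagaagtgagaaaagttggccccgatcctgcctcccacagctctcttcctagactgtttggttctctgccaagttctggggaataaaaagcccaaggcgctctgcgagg
Il18: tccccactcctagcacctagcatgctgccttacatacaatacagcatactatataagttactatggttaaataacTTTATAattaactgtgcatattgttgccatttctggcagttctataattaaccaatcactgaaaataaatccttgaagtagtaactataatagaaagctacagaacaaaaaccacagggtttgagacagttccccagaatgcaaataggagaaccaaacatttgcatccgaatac
Il1r1: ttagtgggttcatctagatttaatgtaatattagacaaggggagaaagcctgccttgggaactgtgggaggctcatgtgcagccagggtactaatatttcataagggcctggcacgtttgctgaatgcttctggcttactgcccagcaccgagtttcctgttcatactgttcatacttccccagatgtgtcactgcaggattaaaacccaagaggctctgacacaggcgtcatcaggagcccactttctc
Il1r2: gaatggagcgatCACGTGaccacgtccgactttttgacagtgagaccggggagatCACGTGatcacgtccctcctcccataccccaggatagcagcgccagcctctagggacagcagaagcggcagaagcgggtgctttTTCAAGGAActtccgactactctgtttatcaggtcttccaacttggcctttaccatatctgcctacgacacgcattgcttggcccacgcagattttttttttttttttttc
Il1rap: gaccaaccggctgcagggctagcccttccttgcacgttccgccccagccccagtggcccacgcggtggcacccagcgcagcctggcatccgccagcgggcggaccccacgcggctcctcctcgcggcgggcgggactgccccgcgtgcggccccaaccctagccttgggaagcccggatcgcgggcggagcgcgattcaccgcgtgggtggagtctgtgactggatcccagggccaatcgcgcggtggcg

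These promoters shared no motif that sets the 4 genes apart. The NF-kB consensus had a match in none of the 5 printed windows, and in 3.90% of all 32817 windows of the same length in the table. It matched once before the second start of Il1r1, between 232 and 223 bases upstream. Il1r2 had 1 match to the STAT element between 111 and 103 bases upstream, which 7.01% of all windows hold, and 2 E-boxes, which 6.02% hold. Il33 had a TATA box 203 to 198 bases before the start shown and another 29 to 24 bases before its second start, and Il18 had 1 on the other strand; 12.4% of all windows hold this motif. AP-1 sites occurred in Il1a and Il1rn and in 6.75% of all windows, and Il1a and Il1b had TATA boxes 32 and 31 bases upstream. The window of Il1rap stood out by its composition, with 74.4% G and C and 30 CpG dinucleotides, against 35.6% and 1 for Il18. A ratio of observed to expected CpG above 0.6 was found in 33.9% of all windows, and in Il1rap (0.87) and Il1r2 (0.86) among the 5 printed. None of these matches shows binding of a factor in these ovaries.

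The remaining genes of the pathway were taken from lists of 57 genes in all, each of which had a probe. Of these, 42 were well above background on both arrays, a share close to the 73.9% of all genes. Among these 42, 9 were at least 2-fold higher with the agonists, against 4.01% of all genes, and 0 were at least 2-fold lower, against 0.577%. The 9 were Il18bp, Sigirr, Casp4, Gsdmd, Irak3, Vcam1, Lcn2, Saa3 and Cebpd. Of all 42, 29 had a ratio above 0 and 13 a ratio below 0, beside 37.7% of all genes above 0. The lists were chosen with earlier results of these data known, so these counts describe the lists and carry no probability.

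Of the other ligands and binding proteins, only Il18bp was measurable. It encodes IL-18 binding protein, a soluble inhibitor of IL-18, and it was read at 209 with the agonists and 79.6 with the antagonists, so that the log2 ratio was 1.15 ± 0.22, or 2.22-fold. The IL-36 genes Il36a, Il36b, Il36g and Il36rn and the gene Il1f10 were well above background on neither array. Of the other receptors, Sigirr encodes an inhibitory member of the IL-1 receptor family. It was read at 480.6 with the agonists and 139 with the antagonists, so that the log2 ratio was 1.55 ± 0.21, or 2.93-fold. Il18r1, the ligand-binding chain of the IL-18 receptor, passed the background criterion with the agonists, at 92.3, but failed it with the antagonists, at 14.7. The difference was 3.93-fold or more, higher with the agonists, a bound that takes the lowest signal well above background on the antagonist array in place of the dim value and rests on 1 of its 2 probes, the other being at background on both arrays. Il18rap, its partner chain, and Il1rl2, Il1rapl1 and Il1rapl2 were well above background on neither array.

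For processing and release, 7 of 9 genes passed the background criterion on both arrays. Their median log2 ratio was 0.39, and 6 of the 7 lay above 0, beside 37.7% of all genes. In this list, Gsdmd, which encodes the pore protein through which IL-1β and IL-18 leave the cell, had a signal of 1135 with the agonists and 419 with the antagonists, which gave a log2 ratio of 1.19. Casp4, which encodes the inflammatory caspase that senses bacterial lipopolysaccharide in the cell and cleaves the product of Gsdmd, had 1.11, and its other probe had 1.05. Casp1, which encodes the protease that activates IL-1β and IL-18, had a log2 ratio of 0.66. The adaptor Pycard was the brightest of the list with 0.26, and the sensor Nlrp3 lay nearest 0 with 0.24, while its other probe gave -0.28. Casp8 had 0.39, and the sensor Aim2 had -0.25, the only measured gene of the list below 0. The sensor Nlrc4 was well above background only with the agonists, and Nlrp1b on neither array. Nlrp3 and Pycard had lower ratios than the caspases 1 and 4 and Gsdmd, but the spot error of Nlrp3, 0.31, exceeded its ratio.

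The signalling genes below the receptor were all measured and mostly near the median of all genes. Of 18 genes, 8 had a ratio above 0 and 10 below 0, with a median of -0.09, and 37.7% of all genes lay above 0. Irak3, which encodes a kinase-like inhibitor of MYD88 signalling, was the exception, with a signal of 99.2 against 26.5 and a log2 ratio of 1.66 ± 0.32, or 3.16-fold. Relb, an NF-kB subunit, had 0.67, and 0.49 with its other probe. The other 16 genes lay between -0.37 and 0.23, among them Rela, the brightest, with 0.17, Irak1 with 0.01, and the adaptor Myd88 with 0.19. The median of this list changed sign with the scaling and was 0.16 when the arrays were left unscaled and 0.19 under spike-in scaling.

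Of 18 genes known to respond to NF-kB, 15 passed the background criterion on both arrays. The median log2 ratio of these 15 was 0.64, and 13 of them lay above 0, beside 37.7% of all genes. Saa3, an acute phase protein, had the highest ratio of the list, with a signal of 744 with the agonists and 72.2 with the antagonists and a log2 ratio of 3.12 ± 0.22, or 8.72-fold. Lcn2, an iron-scavenging protein, had 1.35. Cebpd, a transcription factor of inflammation, also had 1.35. Vcam1, an adhesion molecule for leukocytes, had 1.33, and 1.42 with its other probe. Ptges, which encodes a prostaglandin E synthase, was both the brightest and the nearest to 0, with -0.05 and 0.02 for its probes, and Nos2 had -0.30. Il6 and Cxcl2, which are classical IL-1 targets, were well above background on neither array. Ptgs2, which encodes a prostaglandin H synthase, passed the background criterion on the agonist array alone. Its signal was 37.6 there and 9.67 on the antagonist array, for a lower bound of 1.58 on the fold of agonists over antagonists. Several of these genes also respond to STAT3, glucocorticoids or other cytokines, so the list does not measure IL-1 signalling alone.

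**Figure D4:**
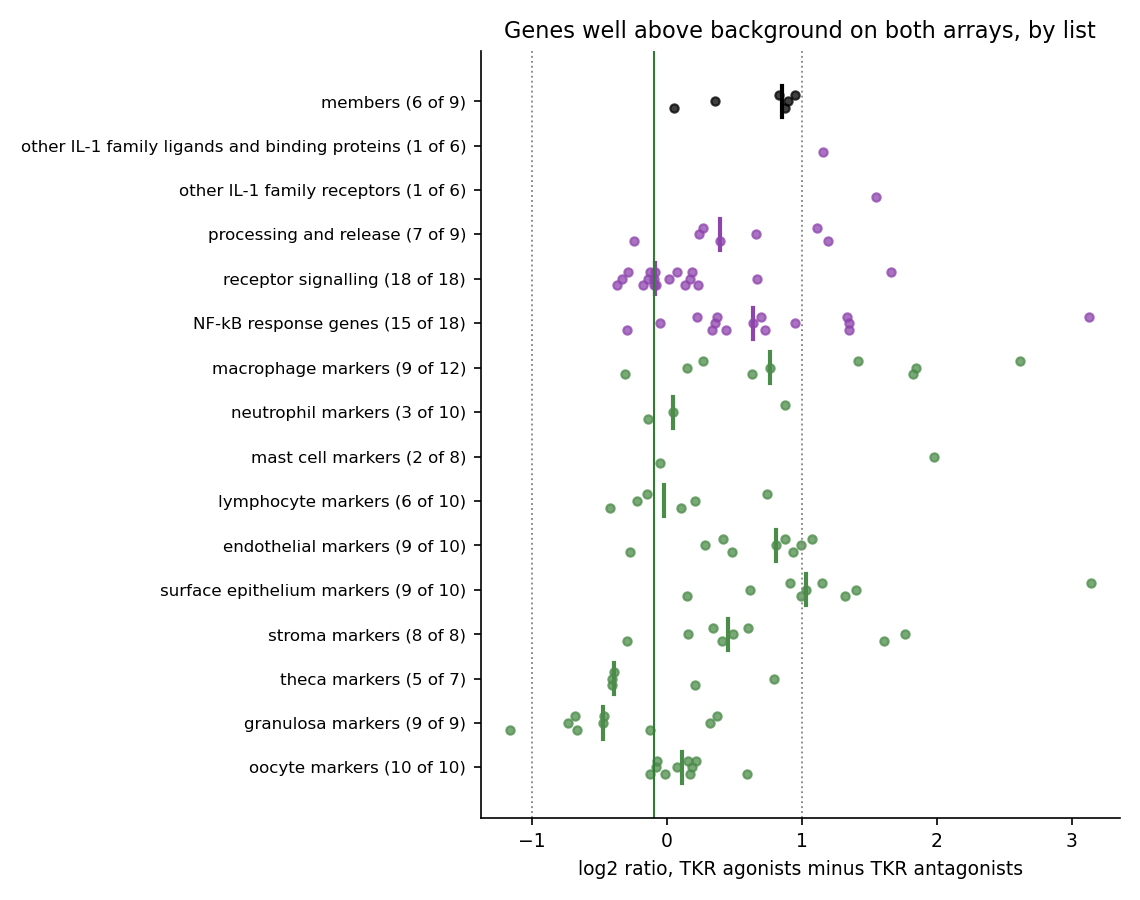
Log2 ratio, TKR agonists minus TKR antagonists, of each gene well above background on both arrays, by list, with 1 point per gene at its brightest probe and the number of such genes out of the listed ones beside each name. Members are black, other pathway lists purple and cell type markers green; vertical bars are list medians where at least 3 genes were measured, the green line is the median of all genes, -0.10, and dotted lines mark 2-fold differences. The signalling genes lie around the green line with Irak3 alone at 1.66, and the surface epithelium and macrophage markers lie mostly above it.

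Markers of the cell types that make or receive these cytokines also differed between the arrays, and their part in the ratios of the interleukin-1 genes was not tested. For each list the summed level below adds the scaled signals of its genes, in multiples of the array's 75th percentile. Counts of marker genes above 0 stand beside 37.7% of all genes. Surface epithelium markers had a median log2 ratio of 1.03 with 9 of 9 measured genes above 0 and a summed level of 39.3 with the agonists against 17.9 with the antagonists, led in brightness by Krt18 (1.03), and Lgals7 reached 3.14. Macrophage markers had a median of 0.76 with 8 of 9 above 0 and a summed level of 27.4 against 23.5. Among them Cx3cr1 reached 2.61, the brightest, Itgam, had -0.31 (its other probes -0.39 and 0.64), and Ptprc and Fcgr1 were well above background only with the agonists. Endothelial markers had a median of 0.80 with 8 of 9 above 0 and a summed level of 77.6 against 63.0, with Egfl7, the brightest, at 0.41, Kdr at -0.27 (0.38 for its other probe) and Tek at least 4.10-fold higher. Stromal markers had a median of 0.45 with 7 of 8 above 0 and a summed level of 429 against 345, with Dcn, the brightest, at 0.34.

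Markers of other immune cells differed from list to list. Mast cell markers matter here because mast cells carry ST2. Of these markers, Cpa3, Fcer1a, Ms4a2, Cma1 and Mcpt4 were well above background on neither array. Tpsb2 had a log2 ratio of -0.05, and Hdc had 1.98. The summed level was 4.71 with the agonists against 1.43 with the antagonists, most of it from Hdc alone. The signals of Hdc were 2946 and 634, and those of Tpsb2 were 172 and 151. Neutrophil markers had 3 of 9 genes measured on both arrays, with a median of 0.05 and summed levels of 125 and 136, most of it from Csf3r (-0.14). The others of these 3 were Elane with 0.05 and Camp with 0.88 (0.71 for its other probe). A further 3, S100a9, Mpo and Ltf, were well above background only with the agonists, at least 1.35-, 1.25- and 1.78-fold higher, and 3 were on neither array. Of the lymphocyte markers, 3 of 6 lay above 0, with a median of -0.02, summed levels of 15.3 and 15.1 and Cd4, the brightest, at 0.10. The defining genes of the ovary were present: all 10 oocyte markers and all 9 granulosa markers passed the background criterion on both arrays, with medians of 0.11 and -0.47, summed levels of 305 against 312 and 113 against 160.4, and Gdf9 and Inha, the brightest, at -0.08 and -0.68. Of 6 theca markers with a probe, 5 were measured, with a median of -0.40, summed levels of 85.7 and 84.9 and Hsd3b1, the brightest, at 0.21.

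The ratios of the interleukin-1 genes moved together with the choice of scaling. Without scaling they were higher by a common amount, with 1.19 for Il33, 1.11 for Il18, 1.07 for Il1r1 and 1.14 for Il1r2, and all 4 were then past 2-fold, as were 4.53% of all measured probes. The spike-in controls, synthetic RNAs added during labelling, gave the same count of 4. A common scaling factor cannot change the order of the genes, but other corrections did: under normexp the order was Il18 at 0.74, Il1r1 at 0.71, Il33 at 0.64 and Il1r2 at 0.29, and under loess Il1r2 was the lowest of the 4 at 0.91. In all 12 alternatives Il33, Il18, Il1r1 and Il1r2 stayed above 0, and in all but the normexp background correction they were at 0.77 or more, whereas Il1rap was at or below 0.33 in every one. Not all of these alternatives could move the values. Each of these 4 genes has 1 probe at 1 spot. The median over spots, outlier spots kept, dim values raised to the floor and the mean over probes therefore returned the same value.

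**Figure D5:**
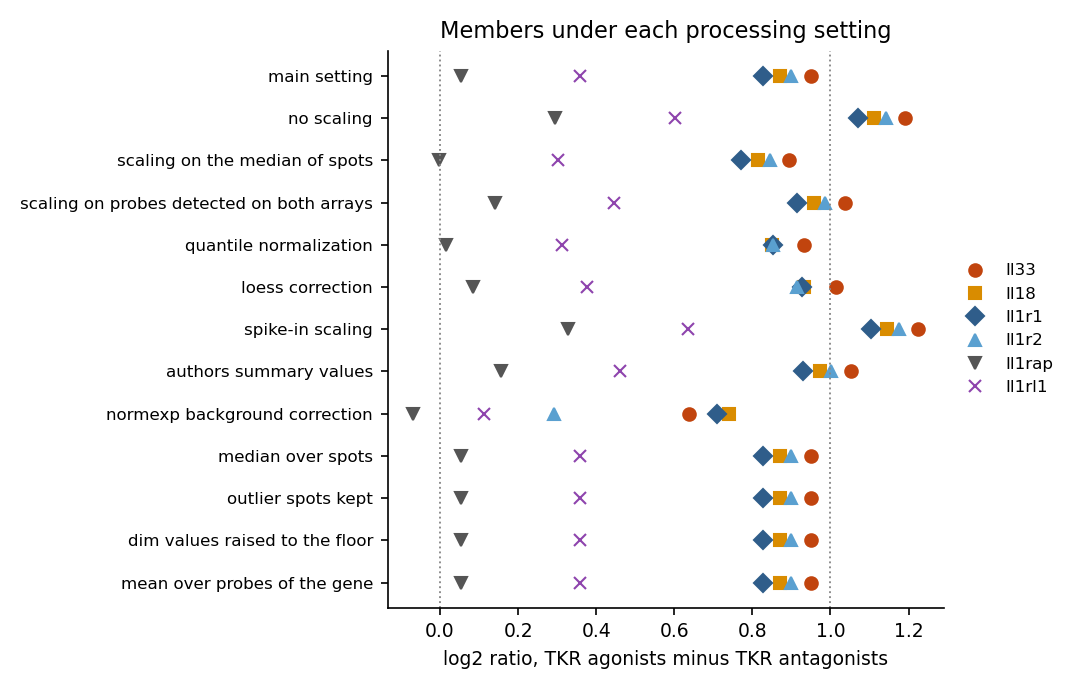
Log2 ratio, TKR agonists minus TKR antagonists, of the 6 genes well above background on both arrays under the setting used in the text and 12 alternatives, 1 row per setting. Dotted lines mark no difference and a 2-fold difference. Without scaling and with spike-in scaling 4 genes pass the 2-fold line, and with the normexp background correction Il1r2 lies at 0.29.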

How the data were processed

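Total RNA of cultured ovaries was measured on 2 single-colour SurePrint G3 Mouse GE arrays, 1 per group. The authors had the images read with Agilent Feature Extraction 10.10.1.1 and deposited linear spot intensity values that are background-subtracted but not scaled between arrays, together with the software's marks for outliers, saturation and signal well above background. Their deposited table of summary intensity equals this signal times a constant per array, with a largest relative deviation of 4.97e-10. The array design names another assembly than the RefSeq tables, so those tables served for names, gene order and their own promoter sequences only.

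From these files, control spots and outlier spots were left out, the signal was taken as log2, lowered by the array's own 75th percentile and averaged over the spots of a probe, which left 55674 probes. Genes were named through RefSeq accessions without version: 27230 probes had a symbol, covering 20658 genes. Older symbols were matched through the table's synonyms. Where a gene had more than 1 probe the brightest stands for it. A probe was well above background where more than 50% of its spots were. A probe dim on 1 array has a lower bound of the fold, set by the lowest signal well above background on that array. The error of a log2 ratio was taken from the software's error of each spot.

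With 1 array per group nothing was tested, and the number of arrays limits the precision. The alternatives were other scalings (including spike-in controls), quantile normalization, loess (span 0.3), normexp (offset 50, on median spot signals), the authors' values, and other summaries, filters and folds. The members and gene lists were chosen with earlier results of these data known. The text names all members, listed pathway genes at least 2-fold apart, the brightest gene of each list and the one nearest 0, and, of marker genes, the brightest of each list and those at least 4-fold apart. A few other listed genes were named after their values were seen. The steps were tested on simulated data. Python 3.11.15, numpy 2.4.6, pandas 2.3.3, matplotlib 3.10.9, R 4.3.3 and limma 3.58.1 were used.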

Additional observations from a re-analysis of the deposited data

How the results depend on the processing

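No paired analysis was possible because neither group has a replicate and nothing was tested. The log2 ratios without scaling, then under spike-in scaling, became 1.19 and 1.22 for Il33, 1.11 and 1.15 for Il18, 1.07 and 1.10 for Il1r1, and 0.30 and 0.33 for Il1rap; Il1rl1 became 0.63 with the latter. The medians became 0.63 and 0.66 for processing and release, 0.88 and 0.91 for NF-kB response genes and, with the opposite sign, 0.16 and 0.19 for receptor signalling, since the median of all probes moved from -0.10 to 0.14 and 0.18. With normexp, Il33 became 0.64, Il1r2 0.29 and the NF-kB response genes 0.36; the cause was not tested. The number of members at least 2-fold higher, 0, became 4 with no scaling, with spike-in scaling or at a 1.5-fold threshold, 2 with the authors' values, and 1 with loess or with scaling on probes detected on both arrays. Without a filter on dim probes 1 was lower, the background probe of Il1rap. Among all probes 890 were past 2-fold higher and 233 past 2-fold lower. These counts were 1499 and 98 without scaling, 1622 and 88 under spike-in scaling, 410 and 60 under normexp, 3339 and 2333 when dim probes were kept, 231 and 31 for bright probes, 127 and 18 at 4-fold and 2299 and 1620 at 1.5-fold; the authors' values gave 149 lower. The share higher among them was 79.3%, against 93.9% without scaling and 94.9% under spike-in scaling. In the other settings the members moved by less than their spot error, and those that change spots, outliers, dim values or probes could not move them. Signal over background limits Il1a, Il1b and Il1rn, which have no ratio in any setting.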

Other observations

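The genes of this pathway that are known as its inhibitors were set side by side after their values had been seen, so the grouping is a description and carries no weight as evidence. The log2 ratio was 0.90 for the decoy receptor Il1r2 (0.29 under normexp), 1.15 for Il18bp, 1.55 for Sigirr and 1.66 for Irak3, while Tollip, a further inhibitor of IRAK signalling, had -0.34, with 0.11 and -0.28 for its other probes, and Il1rn was not measurable. Feedback inhibitors of NF-kB had 0.73 (Tnfaip3), 0.43 (Nfkbie), 0.37 (Nfkbia) and 0.22 (Tnip1). Among activating genes, the log2 ratio was 0.83 for the receptor Il1r1, 0.67 for Relb, 0.19 for Myd88, 0.13 for Irak4, 0.01 for Irak1, -0.29 for Traf6 and -0.37 for Map3k7.

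In the IL-18 branch, Il18 had a log2 ratio of 0.87, its activating protease Casp1 0.66, its soluble inhibitor Il18bp 1.15, and its binding receptor chain Il18r1 had a lower bound of 3.93-fold, higher with the agonists, while the partner chain Il18rap was well above background on neither array. In the IL-33 branch, the ligand had 0.95, the receptor Il1rl1 0.36 on 1 of its 3 probes and the shared chain Il1rap 0.05.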
